A study of Mus musculus with 8 samples.

Results

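A set of 42 genes was followed across all 8 libraries of the study: 25 genes that carry glucose and lactate, run glycolysis or hold pyruvate back from the mitochondria, and 17 genes of the cellular response to low oxygen. The members were taken by gene symbol from a table of 50578 counted genes, and all 42 were found in it. The libraries were RNA-seq libraries of mouse embryonic fibroblasts (MEFs), connective tissue cells grown from the trunk of C57BL/6J embryos, 2 from untreated cells and 2 for each compound. All cultures were wild type and between passage 3 and passage 5, and the medium was renewed every 3 days. The treated MEFs received 1 of 3 compounds at 10 µM. Carbidopa blocks the decarboxylase that turns L-DOPA into dopamine. LY-364947, written LY-364747 in the sample labels, inhibits the type I TGF-beta receptor. CHIR-99021 inhibits glycogen synthase kinase 3, a brake on Wnt signaling. The labels call the control samples MEFs without naming a vehicle, and the time of treatment before RNA-seq was not given in the sources used here. MEFs are a mixed primary culture rather than a clone, and the labels call the treated cells hepatic-like. Of 16 hepatocyte genes, 7 had no read in any library, among them Cyp2e1, Cyp3a11, Tat, Ahsg, Serpina1a and Serpina1b. Alb (serum albumin) and the transcription factor Hnf4a had few reads but more in every treated library than in either MEF library. Alb had 2 and 0 reads in MEFs and 5 to 10 in the treated libraries, and Hnf4a 1 and 2 reads in MEFs and 6 to 10 in the treated libraries, too few for either to be tested. The summed level of all 16 was 0.967 and 0.645 CPM (read counts scaled to library size) in the MEF libraries and between 1.33 and 1.57 CPM in the treated ones. Apob went the other way, from a mean of 0.436 CPM in MEFs to 0.187 CPM under carbidopa and 0.0266 CPM under LY-364947. Its carbidopa libraries overlapped those of MEFs, and it was not tested either. At these levels the cells are called treated MEFs here.

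Glycolysis splits glucose into pyruvate in the cytosol. Pyruvate is then reduced to lactate by lactate dehydrogenase or passed to the mitochondria by the pyruvate dehydrogenase complex, which the Pdk kinases switch off. Oxygen enters this scheme through the hypoxia-inducible factors HIF-1α (Hif1a) and HIF-2α (Epas1). Prolyl hydroxylases of the Egln family mark these proteins for destruction when oxygen is present. In low oxygen the factors accumulate, pair with Arnt and bind short hypoxia response elements, which raises transcription of glucose transporters, glycolytic enzymes, Pdk1, the vascular growth factor Vegfa and others. Cultured fibroblasts are strongly glycolytic cells.

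The core of the hypoxia response element is ACGTG or GCGTG. The RefSeq promoter table of build GRCm38.p6 held 38 of the 42 members, all but Slc2a3, Epas1, Ndrg1 and Bnip3l. In the 250 bases before a start site, read on both strands, the core occurred for 35 of these 38 members (92.1%) and in 46 of their 57 promoters (80.7%, 95% Wilson interval 68.7% to 88.9%). It occurred for 41.5% of all 27025 genes and in 38.6% of all 32851 promoters of the table. Of the 13704 promoters of genes tested here, 54.4% held it. Some starts of 1 gene lay close together, as for Ak4 and Eno1. The interval treats all starts as independent and is to that extent too narrow. Members' promoters were also richer in G and C, at 61.8% of bases against 59.6% for tested genes and 53.2% for all, and the part of base composition in the share was not tested. Gpi1, Tpi1 and Eno2 held no core in this window. Below are the promoters of the 4 members with the largest changes against MEFs among those that held the core: Adm and Ak4, which moved furthest of these in opposite directions, and Ldhb and Pdk4. Each sequence runs 5′ to 3′ on the strand of its gene and ends at the base before a RefSeq start, with each core in capitals (CACGT and CACGC are the same letters read on the other strand).
Adm promoter, chr7:110627407-110627656, plus strand: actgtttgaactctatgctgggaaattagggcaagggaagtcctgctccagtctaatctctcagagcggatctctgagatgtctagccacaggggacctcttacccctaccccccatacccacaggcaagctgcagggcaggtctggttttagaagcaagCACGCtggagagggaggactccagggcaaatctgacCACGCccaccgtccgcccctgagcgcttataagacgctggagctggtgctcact
Ak4 promoter, chr4:101419039-101419288, plus strand: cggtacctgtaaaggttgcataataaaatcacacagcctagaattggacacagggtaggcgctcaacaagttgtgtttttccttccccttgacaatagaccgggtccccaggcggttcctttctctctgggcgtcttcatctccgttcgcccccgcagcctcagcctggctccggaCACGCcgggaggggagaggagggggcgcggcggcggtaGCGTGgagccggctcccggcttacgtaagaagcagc
Ldhb promoter, chr6:142507958-142508207, minus strand: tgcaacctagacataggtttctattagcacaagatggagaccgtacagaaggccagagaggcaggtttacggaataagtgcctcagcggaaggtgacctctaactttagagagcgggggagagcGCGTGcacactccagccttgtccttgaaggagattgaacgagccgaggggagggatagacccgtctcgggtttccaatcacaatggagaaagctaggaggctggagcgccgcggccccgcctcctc
Pdk4 promoter, chr6:5496279-5496528, minus strand: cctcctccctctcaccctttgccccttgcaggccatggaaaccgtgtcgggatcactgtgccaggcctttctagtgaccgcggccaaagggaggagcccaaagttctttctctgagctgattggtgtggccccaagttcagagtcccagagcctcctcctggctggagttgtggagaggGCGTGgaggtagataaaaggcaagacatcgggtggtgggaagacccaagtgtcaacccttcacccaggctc
In these letters, Adm carried 2 cores, the nearest beginning 54 bases before the start, and Ak4 carried 2 before this first of its 4 listed starts. Ldhb and Pdk4 carried 1 each, beginning 126 and 71 bases before the start. A core is a match of letters, not a measured binding site.

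Members rose and fell in nearly equal numbers with each compound. Of the 42 members, 41 had enough counts to be tested, and Ankrd37, an ankyrin-repeat gene, was left out with at most 0.892 CPM. With carbidopa, 11 members rose, where 18% of all 15154 tested genes were called higher, and 11 fell, where 19.7% of all tested genes were called lower. With LY-364947, 11 members rose (13.7% of all tested genes higher) and 13 fell (17.2% of all tested genes lower). With CHIR-99021, 12 rose (18.7% of all tested genes higher) and 12 fell (20.1% of all tested genes lower). Scaled by total counts alone, without TMM factors, 16 rose and 10 fell under carbidopa, 14 rose and 9 fell under LY-364947, and 17 rose and 8 fell under CHIR-99021. By that scaling 7498, 6046 and 7332 of the 15154 tested genes were called in either direction. The median log2 fold change over all tested genes was then 0.287, 0.254 and 0.259, so all genes shifted upward with the members. A gene was called at a Benjamini-Hochberg adjusted p under 0.05 in edgeR's quasi-likelihood test, and changes are given as log2 fold changes ± standard error from that fit. The median log2 fold change of the 41 members was -0.021 under carbidopa, -0.20 under LY-364947 and -0.054 under CHIR-99021, beside 0.0373, 0.0279 and 0.0433 over all tested genes. Each compound was compared with the same 2 MEF libraries, so the comparisons with MEFs are not independent of each other. Nothing in the labels says that replicates came from separate cultures, so p-values measure the spread between these libraries, which may be technical. In these bulk samples, fewer cells of a type and less RNA per cell cannot be told apart.

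**Figure D1:**
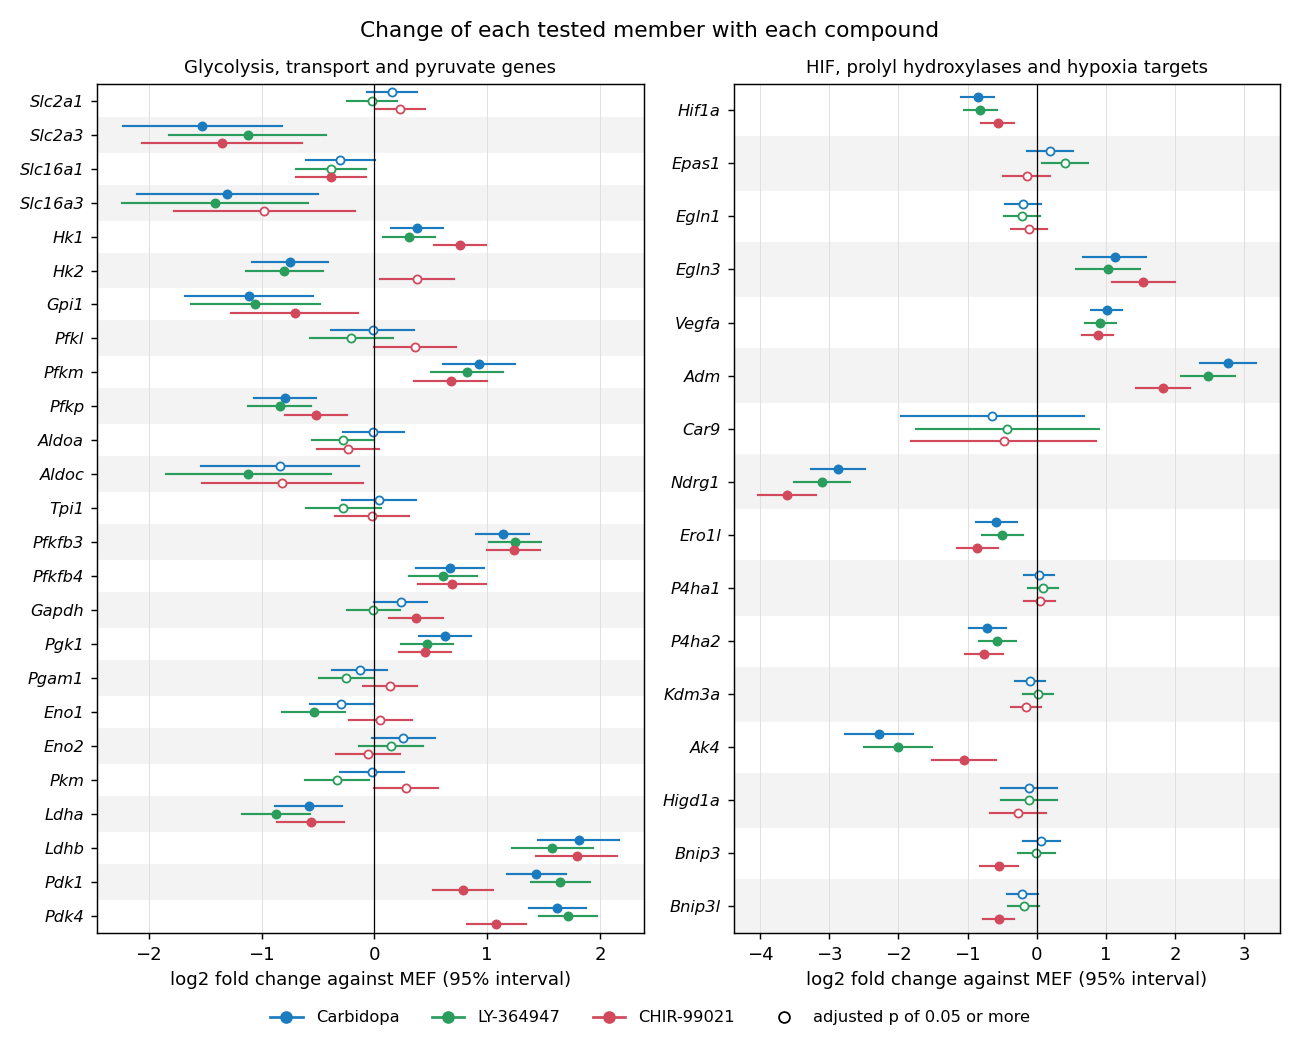
Log2 fold change against MEF on the horizontal axes for the 41 tested members, with glycolysis, transport and pyruvate genes on the left and hypoxia genes on the right. Points are edgeR estimates with unadjusted 95% intervals, coloured by compound, and open points have an adjusted p of 0.05 or more. Ndrg1 lies furthest to the left, at -2.87, -3.10 and -3.60, and Adm furthest to the right, at 2.76, 2.47 and 1.82, for carbidopa, LY-364947 and CHIR-99021.

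Total counts lay between 15039566 and 20504338 a library. TMM factors were 0.880 and 0.895 for the MEF libraries and 1.03 to 1.06 for the treated ones, and scaling by total counts alone raised the median of all genes against MEF to 0.29, 0.25 and 0.26 on the log2 scale. The summed level of the 25 glycolysis genes was 4840 and 4716 CPM in MEFs, 5330 and 4474 under carbidopa, 4128 and 4313 under LY-364947 and 5653 and 5202 under CHIR-99021. The ratio to MEFs was 1.03, 0.883 and 1.14 in that order, and 1.22, 1.03 and 1.32 by total counts alone, so that the side of 1 on which LY-364947 falls depends on the scaling. For the 17 hypoxia genes the ratios were 0.903, 0.907 and 0.812, and 1.07, 1.06 and 0.942 by total counts alone. The glycolysis sum is led by Gapdh and Pkm. By total counts alone, calls against MEFs were lost for Ldha under carbidopa (-0.33, adjusted p = 0.0703) and CHIR-99021 (-0.35, adjusted p = 0.0616). The same held for Aldoc (-0.89, adjusted p = 0.0538), Eno1 (-0.31, adjusted p = 0.0796), Ero1l (-0.27, adjusted p = 0.109) and P4ha2 (-0.35, adjusted p = 0.0509) under LY-364947, and for Gpi1 (-0.49, adjusted p = 0.128), Pfkp (-0.30, adjusted p = 0.0734) and Slc16a1 (-0.17, adjusted p = 0.324) under CHIR-99021. DESeq2's Wald test did not call Slc2a3 (-1.14, adjusted p = 0.0703), Hk1 (0.29, adjusted p = 0.0829) and Aldoc (-1.14, adjusted p = 0.158) under LY-364947, nor Slc16a1 (-0.42, adjusted p = 0.0951) and Gpi1 (-0.73, adjusted p = 0.127) under CHIR-99021. Calls were gained too. DESeq2 called Pkm lower under LY-364947. Total counts alone added rises of Eno2, Epas1 and P4ha1 under carbidopa and LY-364947, and of Gapdh and Slc2a1 under carbidopa. Under CHIR-99021 that scaling added rises of Hk2, Pfkl, Pgam1, Pkm and Slc2a1. Fits of only the groups compared added calls under LY-364947 and CHIR-99021, among them Aldoa as lower with both.

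None of the 4 glucose and lactate carriers passed the test as higher in the fit of all libraries with TMM factors. Slc2a1 (GLUT1), the main glucose transporter of proliferating cells, stood at 50.4 and 48.5 CPM in untreated MEFs, 57.4 and 53.0 CPM under carbidopa, 48.3 and 49.3 CPM under LY-364947 and 56.4 and 59.4 CPM under CHIR-99021. It passed the test with none of the compounds, with 95% intervals of -0.06 to 0.38, -0.24 to 0.20 and 0.01 to 0.45 on the log2 scale (adjusted p = 0.233, 0.907 and 0.0952). By total counts alone, however, Slc2a1 was called higher under carbidopa and CHIR-99021. In a fit of only the groups compared, it was called higher under CHIR-99021. Slc2a3 (GLUT3), a high-affinity glucose transporter, fell from 2.90 and 5.03 CPM in MEFs to 1.46 and 1.31 CPM under carbidopa, 1.85 and 1.81 CPM under LY-364947 and 1.44 and 1.68 CPM under CHIR-99021. Every treated library was below both MEF libraries, and the log2 fold changes were -1.52 ± 0.32 under carbidopa, -1.12 ± 0.31 under LY-364947 and -1.35 ± 0.32 under CHIR-99021 (adjusted p = 0.00403, 0.0201 and 0.00748). Per kilobase of exon, mean Slc2a1 was 14.1 and mean Slc2a3 0.547 CPM per kb in MEFs, so the carrier that fell was the minor one. Slc16a3 (MCT4), the lactate exporter of glycolytic cells, stood at 2.90 and 3.35 CPM in untreated MEFs, 1.70 and 0.840 CPM under carbidopa, 1.01 and 1.33 CPM under LY-364947 and 1.38 and 1.80 CPM under CHIR-99021. The groups did not overlap, and it fell under carbidopa (-1.30 ± 0.36, adjusted p = 0.0174) and LY-364947 (-1.41 ± 0.37, adjusted p = 0.0151), while the value under CHIR-99021 missed the threshold (-0.98 ± 0.36, adjusted p = 0.0543). Slc16a1 (MCT1), the widespread lactate and pyruvate carrier, passed the test under CHIR-99021 alone, narrowly, at -0.39 ± 0.14 (adjusted p = 0.0498), beside -0.30 and -0.39 with the other compounds. These falls rest on few reads and few libraries. Without MEF replicate 2 the Slc2a3 values were -1.07, adjusted p = 0.0674 under carbidopa, -0.66, adjusted p = 0.259 under LY-364947 and -0.90, adjusted p = 0.112 under CHIR-99021, and without either LY-364947 replicate or CHIR-99021 replicate 1 the call of that compound was lost too. The Slc16a3 calls were lost without either MEF replicate or carbidopa replicate 2 (-1.40 to -0.88, adjusted p = 0.0546 to 0.109) and without any of the 4 libraries compared for LY-364947 (-1.63 to -1.23, adjusted p = 0.0514 to 0.106), and that of Slc16a1 without either MEF replicate, either CHIR-99021 replicate or LY-364947 replicate 2 (-0.41 to -0.35, adjusted p = 0.0514 to 0.182).

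The hexokinases, which trap glucose in the cell as glucose 6-phosphate, moved in opposite directions under carbidopa and LY-364947, but not under CHIR-99021. Hk1, the widespread form, was 96.9 and 96.9 CPM in MEFs and rose to 176 and 153 CPM under CHIR-99021 (0.76 ± 0.10, adjusted p = 0.000240), with smaller rises for carbidopa (0.38 ± 0.10) and LY-364947 (0.31 ± 0.10). Hk2, the inducible form typical of muscle and growing cells (gene at chr6:82725025-82774454, minus strand, mm10), stood at 24.2 and 27.1 CPM in untreated MEFs, 13.8 and 16.8 CPM under carbidopa, 13.0 and 16.5 CPM under LY-364947 and 34.4 and 32.2 CPM under CHIR-99021. All 4 carbidopa and LY-364947 libraries lay below both MEF libraries, and both CHIR-99021 libraries lay above them. Hk2 fell under carbidopa (-0.75 ± 0.15, adjusted p = 0.00347) and LY-364947 (-0.80 ± 0.15, adjusted p = 0.00259), and its value under CHIR-99021 was 0.38 ± 0.15 (adjusted p = 0.0676). By total counts alone, without the filter on low counts and in a fit of only the groups compared, Hk2 was called higher under CHIR-99021. Gpi1, which turns glucose 6-phosphate into fructose 6-phosphate, stood at 285 and 280.5 CPM in untreated MEFs, 130.4 and 131 CPM under carbidopa, 183 and 89.1 CPM under LY-364947 and 155 and 192 CPM under CHIR-99021. All treated libraries were below both MEF libraries, at -1.11 ± 0.26 under carbidopa, -1.05 ± 0.26 under LY-364947 and -0.71 ± 0.25 under CHIR-99021 (adjusted p = 0.00702, 0.00999 and 0.0496), and the LY-364947 pair alone spanned most of the range of the treated libraries. Without LY-364947 replicate 1 that fall was -1.66, without replicate 2 it was -0.63, and without MEF replicate 1 it lost its call (-1.05, adjusted p = 0.0521). The CHIR-99021 fall of Gpi1 was lost without any of the 4 libraries compared (-0.86 to -0.56, adjusted p = 0.0809 to 0.267), as were the Hk1 rises without either MEF replicate for carbidopa (0.37 to 0.38, adjusted p = 0.103 to 0.113) and without either MEF, LY-364947 or CHIR-99021 replicate for LY-364947 (0.25 to 0.36, adjusted p = 0.0575 to 0.269).

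Phosphofructokinase, the committing step of glycolysis, is built from liver (Pfkl), muscle (Pfkm) and platelet (Pfkp) subunits. Pfkm rose with every compound (0.93 ± 0.14 under carbidopa, 0.82 ± 0.14 under LY-364947 and 0.68 ± 0.14 under CHIR-99021) and Pfkp fell with every compound (-0.79 ± 0.12 under carbidopa, -0.84 ± 0.13 under LY-364947 and -0.52 ± 0.12 under CHIR-99021). Pfkl lay between 17.7 and 31.0 CPM in all libraries and was not called against MEFs. The Pfkm rise under CHIR-99021 was lost without MEF replicate 2 or CHIR-99021 replicate 1 (0.51 to 0.58, adjusted p = 0.0520 to 0.0562), and the Pfkp fall without MEF replicate 1 or CHIR-99021 replicate 2 (-0.49 to -0.38, adjusted p = 0.0639 to 0.0804). Both Pfkfb enzymes of the set also rose. These bifunctional enzymes make and break fructose 2,6-bisphosphate, the strongest activator of phosphofructokinase, and Pfkfb3 is the form that mostly makes it. Pfkfb3 (chr2:11471433-11554077, minus strand) stood at 25.1 and 28.4 CPM in untreated MEFs, 58.4 and 59.4 CPM under carbidopa, 62.0 and 65.2 CPM under LY-364947 and 63.6 and 62.4 CPM under CHIR-99021. Treated libraries ran from 58.4 to 65.2 CPM, more than double either MEF library, at 1.14 ± 0.10 under carbidopa, 1.25 ± 0.10 under LY-364947 and 1.23 ± 0.10 under CHIR-99021 (adjusted p = 1.55e-05, 8.57e-06 and 8.78e-06). Pfkfb4 rose by 0.67, 0.61 and 0.69 under carbidopa, LY-364947 and CHIR-99021, from 11.8 and 12.0 CPM in MEFs to between 17.0 and 20.3 CPM, and its LY-364947 call was lost without either MEF replicate or LY-364947 replicate 2 (0.51 to 0.62, adjusted p = 0.0521 to 0.0726).

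The next enzymes, the main aldolase Aldoa and triose phosphate isomerase Tpi1, were not called against MEFs. Aldoa ranged from 321 to 446 CPM and Tpi1 from 101 to 151 CPM over all libraries. Aldoc, a minor brain-type aldolase, was 2.08 and 2.19 CPM in MEFs, 1.32 and 1.07 CPM under carbidopa, 0.842 and 1.12 CPM under LY-364947 and 1.21 and 1.22 CPM under CHIR-99021. Its treated libraries all lay below the MEF libraries, but only the LY-364947 value passed the test (-1.12 ± 0.33, adjusted p = 0.0259, against 0.0595 and 0.0699 for the others). That call was lost without any of the 4 libraries compared (-1.34 to -0.93, adjusted p = 0.0678 to 0.161).

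The payoff phase of glycolysis held the most abundant members. Gapdh, which oxidizes glyceraldehyde 3-phosphate, stood at 1335 and 1324 CPM in untreated MEFs, 1690 and 1436 CPM under carbidopa, 1281 and 1359 CPM under LY-364947 and 1761 and 1673 CPM under CHIR-99021. It rose under CHIR-99021 (0.37 ± 0.11, adjusted p = 0.0195), a call lost without either MEF replicate or CHIR-99021 replicate 1 (0.34 to 0.38, adjusted p = 0.104 to 0.127), and stood at 0.23 ± 0.11 under carbidopa (adjusted p = 0.109) and -0.01 ± 0.11 under LY-364947 (adjusted p = 0.955). Carbidopa replicate 1 held nearly as much Gapdh as the CHIR-99021 libraries. Pgk1, the first ATP-forming enzyme, rose with all compounds, from 189.5 and 179.7 CPM in MEFs to between 248 and 306 CPM (0.63 ± 0.10 under carbidopa, 0.47 ± 0.10 under LY-364947 and 0.45 ± 0.10 under CHIR-99021). The Pgk1 call was lost for LY-364947 without MEF replicate 2 or LY-364947 replicate 2 (0.42 to 0.43, adjusted p = 0.0660 to 0.0812) and for CHIR-99021 without MEF replicate 2 (0.40, adjusted p = 0.0848). Eno1, the ubiquitous enolase, fell under LY-364947 (-0.54 ± 0.12, adjusted p = 0.00785), which was lost without MEF replicate 1 or LY-364947 replicate 1 (-0.51 to -0.47, adjusted p = 0.0673 to 0.0762). With carbidopa both libraries also lay below the MEF libraries (-0.29 ± 0.12, adjusted p = 0.0895), and LY-364947 did not differ from carbidopa past the threshold (-0.25, adjusted p = 0.519). Pkm, the muscle-type pyruvate kinase that fibroblasts use, stood at 962 and 929 CPM in untreated MEFs, 1033 and 831 CPM under carbidopa, 717 and 789 CPM under LY-364947 and 1240 and 1057 CPM under CHIR-99021. It passed the test against MEFs with none of the compounds (-0.02 ± 0.13 under carbidopa, -0.33 ± 0.13 under LY-364947 and 0.28 ± 0.13 under CHIR-99021). Some alternatives did call Pkm. It was lower under LY-364947 by DESeq2, without the filter on low counts and in a fit of only the groups compared. Under CHIR-99021 it was higher by total counts alone, without that filter and in a fit of only the groups compared. Pgam1, the phosphoglycerate mutase, and Eno2, the neuronal enolase, were not called against MEFs either. Copies of these genes elsewhere in the genome share much of their sequence: 52.8% of the 75-base words of Pgk1, 34.9% of Pgam1, 23.0% of Eno1, 22.6% of Gapdh and 17.8% of Pkm occurred in other annotated genes, so their counts are uncertain to the extent that the counting split or dropped such reads.

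The 2 lactate dehydrogenase genes moved in opposite directions with every compound. The M subunit, Ldha, favours lactate, and the H subunit, Ldhb, is typical of oxidative tissue such as heart. Ldhb (chr6:142490249-142507957, minus strand) stood at 20.4 and 20.8 CPM in untreated MEFs, 84.3 and 60.1 CPM under carbidopa, 61.0 and 61.7 CPM under LY-364947 and 76.9 and 65.7 CPM under CHIR-99021. Each treated library held at least 60.1 CPM, far above both MEF libraries, and the rises were 1.81 ± 0.16 under carbidopa, 1.58 ± 0.16 under LY-364947 and 1.79 ± 0.16 under CHIR-99021 (adjusted p = 1.24e-05, 3.59e-05 and 1.36e-05), or 3.51-, 2.98- and 3.46-fold. Ldha stood at 270.1 and 265 CPM in untreated MEFs, 204 and 153 CPM under carbidopa, 141 and 151 CPM under LY-364947 and 190.5 and 172 CPM under CHIR-99021. All treated libraries lay below both MEF libraries, at -0.58 ± 0.13 under carbidopa, -0.87 ± 0.13 under LY-364947 and -0.56 ± 0.13 under CHIR-99021 (adjusted p = 0.00693, 0.000653 and 0.00756). Ldhb kept its calls against MEFs under every alternative, whereas Ldha lost its call for carbidopa without MEF replicate 1 (-0.57, adjusted p = 0.0513) and for CHIR-99021 without MEF replicate 1 or CHIR-99021 replicate 2 (-0.55 to -0.48, adjusted p = 0.0542 to 0.0682). The only gene that shares words with Ldhb (12.6% of its 75-base words) is the pseudogene Gm5514, which had no read in any library.

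Because isozymes share a library, their shares do not depend on scaling between libraries. Per kilobase of exon, Ldhb made up 13.7% and 14.2% of Ldha plus Ldhb in the MEF libraries, 46.6% and 45.3% under carbidopa, 47.7% and 46.2% under LY-364947 and 46.0% and 44.6% under CHIR-99021. All treated libraries thus lay close together and far above both MEF libraries. Hk2 made up 26.3% and 28.6% of Hk1 plus Hk2 in MEFs, 13.7% and 15.9% under carbidopa, 13.9% and 15.9% under LY-364947 and 21.9% and 23.1% under CHIR-99021. The Hk2 share was thus lower in all treated libraries than in both MEF libraries, also under CHIR-99021, where Hk2 itself was not lower. Pfkm made up 50.9% and 50.6% of the 3 phosphofructokinase subunits in MEFs and between 61.9% and 71.9% after treatment, while Pfkp went from 22.9% and 24.8% to between 9.01% and 12.8%. The share of Eno2 in Eno1 plus Eno2 stayed between 5.92% and 10.9%, and that of Pdk4 in Pdk1 plus Pdk4 between 58.5% and 65.4%.

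**Figure D2:**
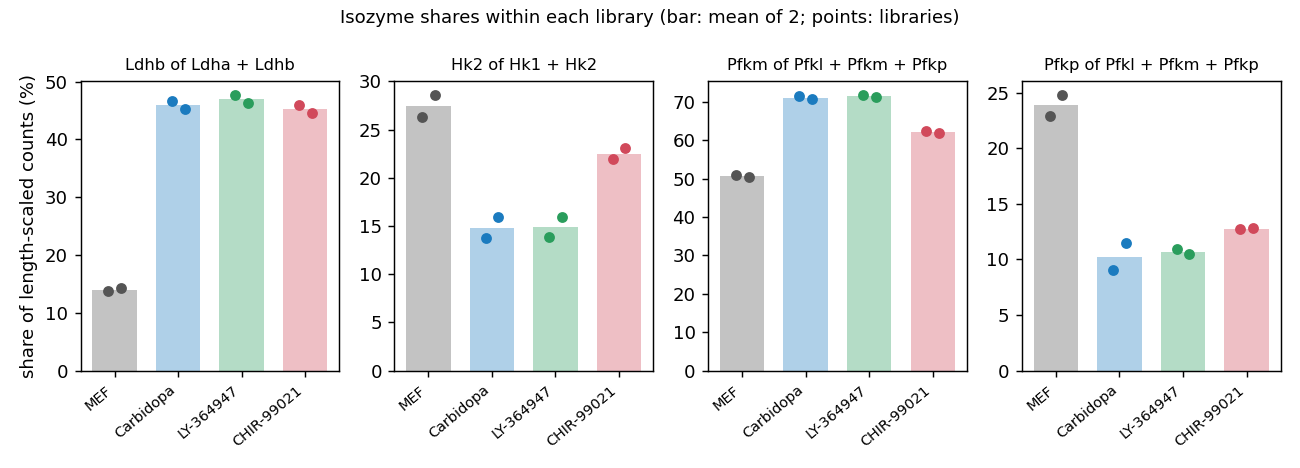
Share of 1 isozyme in its enzyme family, in percent of counts per kilobase of exon, for each group on the horizontal axes. Points are libraries and bars are means of 2. The share of Ldhb lies at 13.7% and 14.2% in MEFs and between 44.6% and 47.7% in treated libraries, and that of Hk2 is lowest under carbidopa and LY-364947.

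Both pyruvate dehydrogenase kinases of the set rose with every compound. These kinases phosphorylate and switch off the enzyme that feeds pyruvate into the mitochondria. Pdk1, a known HIF-1 target (chr2:71873224-71903858, plus strand), stood at 17.4 and 17.0 CPM in untreated MEFs, 43.5 and 49.6 CPM under carbidopa, 53.8 and 54.2 CPM under LY-364947 and 28.1 and 31.3 CPM under CHIR-99021. The rises were 1.43 ± 0.12 under carbidopa, 1.65 ± 0.12 under LY-364947 and 0.79 ± 0.12 under CHIR-99021 (adjusted p = 6.85e-06, 2.55e-06 and 0.000509). Pdk4, the kinase induced by fasting and fatty acids (chr6:5483351-5496309, minus strand), stood at 11.1 and 11.0 CPM in untreated MEFs, 35.0 and 33.1 CPM under carbidopa, 37.0 and 35.6 CPM under LY-364947 and 24.0 and 22.8 CPM under CHIR-99021. The rises were 1.62 ± 0.11 under carbidopa, 1.71 ± 0.11 under LY-364947 and 1.08 ± 0.12 under CHIR-99021 (adjusted p = 2.30e-06, 1.64e-06 and 4.71e-05). For both kinases the CHIR-99021 libraries sat between MEFs and the other treated libraries, without overlap, and no alternative removed a call against MEFs.

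Among the oxygen-sensing genes, the transcript of the factor fell while that of 1 of its hydroxylases rose. Hif1a (chr12:73901375-73947530, plus strand) stood at 302 and 332 CPM in untreated MEFs, 168 and 183 CPM under carbidopa, 190.5 and 169.7 CPM under LY-364947 and 205 and 224 CPM under CHIR-99021. All treated libraries lay below both MEF libraries, at -0.85 ± 0.11 under carbidopa, -0.82 ± 0.11 under LY-364947 and -0.56 ± 0.11 under CHIR-99021 (adjusted p = 0.000163, 0.000222 and 0.00225), and these calls held under every alternative. RNA does not show the amount of HIF-1α protein, which is set mainly by its degradation. Epas1, which encodes HIF-2α, stood at 28.0 and 27.4 CPM in untreated MEFs, 26.5 and 36.7 CPM under carbidopa, 37.3 and 36.0 CPM under LY-364947 and 25.8 and 24.1 CPM under CHIR-99021. The carbidopa libraries overlapped the MEF libraries, those of LY-364947 lay above and those of CHIR-99021 below, and Epas1 passed the test with none of the compounds against MEFs (0.19 ± 0.15 under carbidopa, 0.41 ± 0.15 under LY-364947 and -0.15 ± 0.15 under CHIR-99021). By total counts alone Epas1 was called higher under carbidopa and LY-364947. The LY-364947 rise was also called without the filter on low counts and in a fit of only the groups compared. Egln1 (PHD2), the chief oxygen sensor among the hydroxylases, was not called (-0.20, -0.21 and -0.11 for carbidopa, LY-364947 and CHIR-99021). Egln3 (PHD3), itself a HIF target, rose from 3.05 and 3.94 CPM in MEFs to 7.58 and 7.74 CPM under carbidopa, 7.58 and 6.82 CPM under LY-364947 and 9.04 and 11.4 CPM under CHIR-99021. No groups overlapped with MEFs, and the rises were 1.13 ± 0.20 under carbidopa, 1.03 ± 0.21 under LY-364947 and 1.54 ± 0.20 under CHIR-99021 (adjusted p = 0.00180, 0.00345 and 0.000208).

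Of 12 hypoxia targets tested, 2 rose with every compound, 4 fell with every compound and 6 did neither. Of all tested genes, 8.60% rose and 12.8% fell with every compound, and the 3 comparisons share both MEF libraries. Adm, which encodes the vasodilator peptide adrenomedullin (gene at chr7:110627661-110629820, plus strand), had the largest rise of all members. It stood at 25.4 and 27.5 CPM in untreated MEFs, 214 and 145 CPM under carbidopa, 137 and 157 CPM under LY-364947 and 97.1 and 89.7 CPM under CHIR-99021. The lowest treated library held more than 3 times the level of the higher MEF library, at 2.76 ± 0.18 under carbidopa, 2.47 ± 0.18 under LY-364947 and 1.82 ± 0.18 under CHIR-99021 (adjusted p = 1.29e-06, 2.71e-06 and 2.20e-05), or 6.79-, 5.55- and 3.53-fold. The carbidopa libraries differed from each other, replicate 1 being the higher. Vegfa, the vascular endothelial growth factor, stood at 49.1 and 49.4 CPM in untreated MEFs, 105 and 94.0 CPM under carbidopa, 91.6 and 94.6 CPM under LY-364947 and 93.4 and 87.8 CPM under CHIR-99021. Treated libraries ran from 87.8 to 105 CPM, all above both MEF libraries, at 1.01 ± 0.10 under carbidopa, 0.92 ± 0.10 under LY-364947 and 0.88 ± 0.10 under CHIR-99021 (adjusted p = 2.82e-05, 5.97e-05 and 7.57e-05).

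Ndrg1, a stress- and differentiation-induced gene that serves as a hypoxia marker (chr15:66929318-66969640, minus strand), had the largest fall. It stood at 51.7 and 52.4 CPM in untreated MEFs, 6.87 and 7.32 CPM under carbidopa, 5.33 and 6.76 CPM under LY-364947 and 3.46 and 5.11 CPM under CHIR-99021. MEF libraries held at least 7 times the level of any treated library, at -2.87 ± 0.17 under carbidopa, -3.10 ± 0.18 under LY-364947 and -3.60 ± 0.19 under CHIR-99021 (adjusted p = 8.10e-07, 6.04e-07 and 2.50e-07), or 7.32-, 8.58- and 12.1-fold lower. Ak4, a mitochondrial adenylate kinase (chr4:101419277-101466995, plus strand), stood at 12.5 and 11.7 CPM in untreated MEFs, 2.87 and 2.10 CPM under carbidopa, 3.09 and 2.93 CPM under LY-364947 and 4.95 and 6.67 CPM under CHIR-99021. Its falls were -2.28 ± 0.22 under carbidopa, -2.00 ± 0.22 under LY-364947 and -1.05 ± 0.21 under CHIR-99021 (adjusted p = 2.46e-05, 6.21e-05 and 0.00269), with the CHIR-99021 libraries between the MEF libraries and the rest. Ero1l, the oxidase that drives disulfide formation in the endoplasmic reticulum, fell by less (-0.59 ± 0.13 under carbidopa, -0.50 ± 0.13 under LY-364947 and -0.86 ± 0.13 under CHIR-99021), as did P4ha2, a collagen prolyl hydroxylase subunit (-0.72 ± 0.12 under carbidopa, -0.57 ± 0.12 under LY-364947 and -0.76 ± 0.12 under CHIR-99021). The calls of Ndrg1 and Ak4 against MEFs held under every alternative. That of Ero1l was lost for carbidopa without MEF replicate 2 (-0.53, adjusted p = 0.0705) and for LY-364947 without any of the 4 libraries compared (-0.57 to -0.44, adjusted p = 0.0550 to 0.139), and that of P4ha2 for LY-364947 without LY-364947 replicate 1 (-0.50, adjusted p = 0.0540).

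Bnip3 and Bnip3l, mitophagy receptors and HIF targets, passed the test as lower than in MEFs under CHIR-99021 alone. Bnip3 was 31.8 and 34.5 CPM in MEFs and 21.5 and 23.8 CPM under CHIR-99021 (-0.55 ± 0.12, adjusted p = 0.00542), and Bnip3l was 178 and 193 CPM and 121 and 132 CPM (-0.55 ± 0.10, adjusted p = 0.00186). All carbidopa and LY-364947 libraries of Bnip3l also lay below both MEF libraries, at -0.21 and -0.19 (adjusted p = 0.132 and 0.185). A fit of only the groups compared called Bnip3l lower under LY-364947. The Bnip3 call was lost without MEF replicate 2 or CHIR-99021 replicate 1 (-0.50 to -0.47, adjusted p = 0.0573 to 0.0642), and other genes hold 34.4% of its 75-base words. P4ha1, the other collagen prolyl hydroxylase subunit, Kdm3a, a histone demethylase, and Higd1a, a respiratory supercomplex factor, were not called. For P4ha1 every 95% interval against MEFs lay between -0.19 and 0.31 on the log2 scale, and the level ran from 299 to 342 CPM over all 8 libraries. Car9 (carbonic anhydrase IX) was tested but stayed at or below 1.26 CPM, and its intervals ran from -1.96 to 0.90, so that a 2-fold fall was not detectable at this depth.

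**Figure D3:**
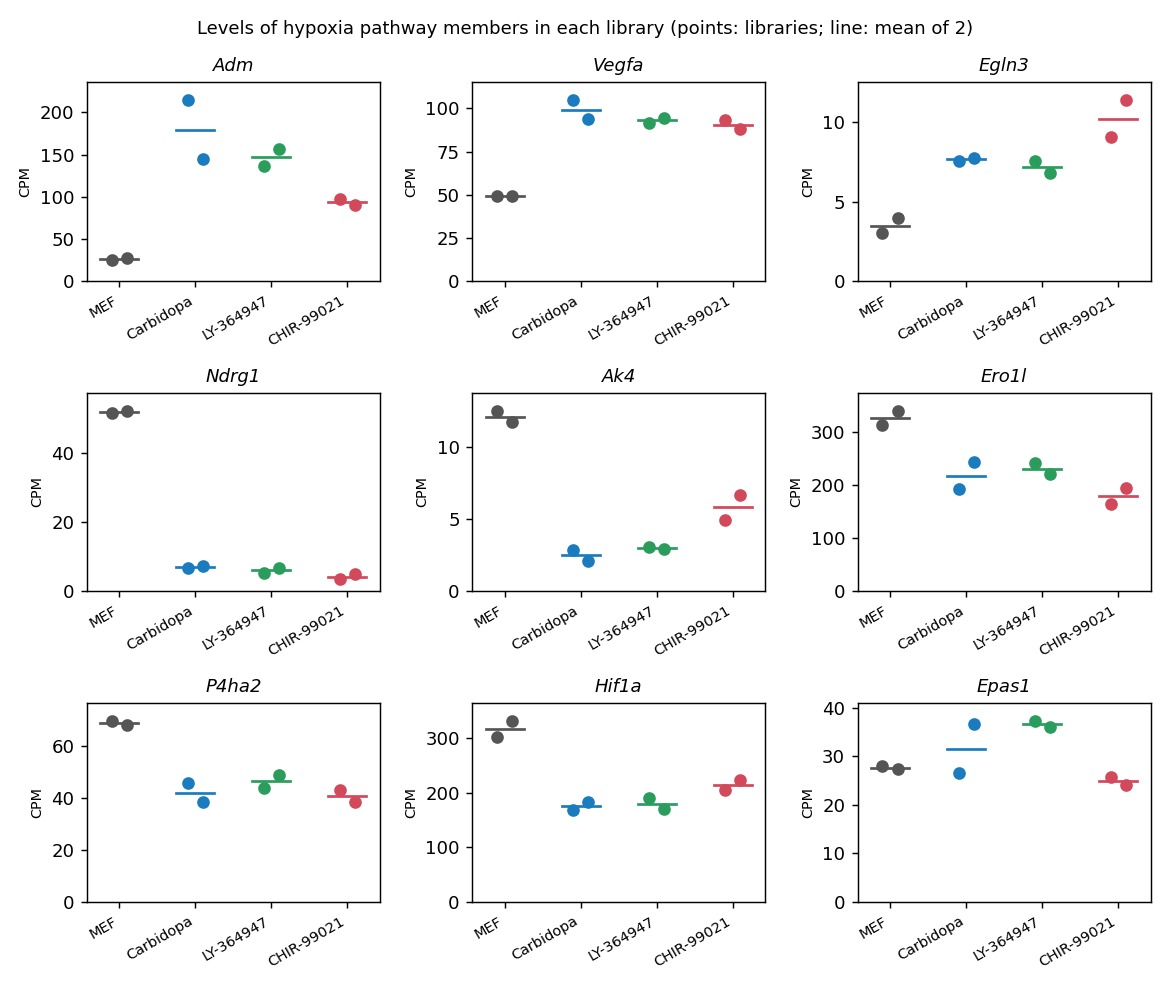
Levels in CPM on vertical axes that start at 0, for 9 genes of the hypoxia pathway in the 4 groups. Points are libraries and lines are means of 2. Adm lies at 89.7 CPM or more in all treated libraries against 25.4 and 27.5 CPM in MEFs, while Ndrg1 lies at 7.32 CPM or less against 51.7 and 52.4 CPM.

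Other genes of the same pathways were set beside the members as lists. Over all tested genes, 18% rose and 19.7% fell under carbidopa, and 13.7% rose and 17.2% fell under LY-364947. Under CHIR-99021, 18.7% rose and 20.1% fell. Of 19 tested among 31 further glycolysis and gluconeogenesis genes, 4 rose and 5 fell under carbidopa, 2 rose and 5 fell under LY-364947 and 3 rose and 6 fell under CHIR-99021. Pcx, the mitochondrial pyruvate carboxylase, rose by 1.04, 1.11 and 1.05 in that order, and Pgm2, a phosphoglucomutase, by 0.74, 0.58 and 0.73. Minor carriers fell with every compound, namely the glucose transporters Slc2a10 (-2.05, -1.63 and -1.03) and Slc2a12 (-3.16, -3.57 and -2.42, at under 3 CPM) and the monocarboxylate carrier Slc16a7 (-1.26, -0.95 and -2.11). Hk3, the hexokinase of myeloid cells, fell with the macrophage genes described at the end (-1.05, -1.20 and -2.80). Pgm1 rose by 0.55 under CHIR-99021, and the glucose transporter Slc2a8 by 0.45 under carbidopa. Leaving out MEF replicate 2 lowered the number called to 5 for carbidopa and 4 for LY-364947. It removed the calls of Slc2a12 with each compound (-2.70, adjusted p = 0.0926 under carbidopa), of Slc16a7 under carbidopa (-1.16, adjusted p = 0.0610) and of Pgm2 under LY-364947 (0.53, adjusted p = 0.0574), and Slc2a8 lost its call without any library but carbidopa replicate 2 (0.36 to 0.45, adjusted p = 0.0625 to 0.173). Carbidopa replicate 1 had no read of Slc2a12, and against it alone no fold is given.

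Around the same route, the pentose phosphate pathway branches off glucose 6-phosphate. Of its 8 genes, 2 rose and 0 fell under carbidopa, 2 rose and 1 fell under LY-364947 and 1 rose and 2 fell under CHIR-99021. These are 25% and 0%, 25% and 12.5%, and 12.5% and 25%. Over all tested genes the shares higher and lower were 18% and 19.7%, 13.7% and 17.2%, and 18.7% and 20.1%. Taldo1 (transaldolase) rose by 0.94, 0.68 and 1.02 and kept these calls whichever library was left out. The other calls, Pgls up under carbidopa (0.57), H6pd up and Tkt down under LY-364947 (0.49 and -0.35), and Rpe and G6pdx down under CHIR-99021 (-0.38 and -0.29), were lost without either MEF or LY-364947 replicate, and mostly without others too (adjusted p = 0.0529 to 0.212 for Pgls, 0.0689 to 0.222 for H6pd, 0.0513 to 0.286 for Tkt, 0.0616 to 0.318 for Rpe and 0.0671 to 0.209 for G6pdx). Pgls stood at 0.25 without carbidopa replicate 1 and Rpe at -0.24 without CHIR-99021 replicate 1. With single libraries left out, the number called in the list ran from 1 to 3 for carbidopa, 1 to 4 for LY-364947 and 1 to 6 for CHIR-99021. Of 12 further genes at the entry of pyruvate into mitochondria, 4 rose and 1 fell under carbidopa, 3 rose and 2 fell under LY-364947 and 1 rose and 2 fell under CHIR-99021. These are 33.3% and 8.33%, 25% and 16.7%, and 8.33% and 16.7%, to be read beside the same shares of all tested genes. Pdk3 fell with every compound (-0.73, -0.58 and -0.38), whereas Pdk2 rose under carbidopa (0.40) and LY-364947 (0.42). Pdp1 and Pdp2, the phosphatases that reactivate the enzyme, rose under carbidopa and LY-364947 (0.48 and 0.59 for Pdp1, 0.38 and 0.59 for Pdp2), and Pdp1 fell under CHIR-99021 (-0.51). The enzyme subunit Pdhb rose under carbidopa (0.63) and CHIR-99021 (0.40), and the subunit Dlat fell under LY-364947 (-0.35). With single libraries left out, the number called in this list ran from 2 to 7 for carbidopa, 1 to 7 for LY-364947 and 0 to 5 for CHIR-99021. The Pdk2, Pdp1 and Dlat calls were lost without at least 3 of the 8 libraries in turn (adjusted p up to 0.209, 0.310 and 0.187), Pdp1 standing at 0.31 under carbidopa without MEF replicate 1 and at -0.31 under CHIR-99021 without MEF replicate 2. Lost too were the calls of Pdk3 under LY-364947 and CHIR-99021 (-0.52, adjusted p = 0.0649 without LY-364947 replicate 2) and of Pdhb under CHIR-99021 (0.36 to 0.43, adjusted p = 0.0743 to 0.152).

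Further genes of the hypoxia response also moved both ways. Of 11 tested among 12 genes of the HIF machinery, 1 rose and 1 fell with each compound. That is 9.09% each way, below the shares of all tested genes called in either direction with each compound. Arnt2, a partner of the factors, rose with every compound (1.68, 1.82 and 0.63), and Cited2, which competes with HIF-1α for its coactivator, fell with every compound (-0.51, -0.59 and -0.62, all on the log2 scale in the order carbidopa, LY-364947, CHIR-99021). With each library left out in turn, the number called in the list ran from 2 to 7 for carbidopa, the highest without carbidopa replicate 2, and from 1 to 5 for CHIR-99021, the highest without either carbidopa replicate, and stayed at 2 for LY-364947. By total counts alone the Cited2 fall under carbidopa missed the threshold (-0.26, adjusted p = 0.0882). The Arnt2 rise under CHIR-99021 was lost without any of the 4 libraries compared (0.60 to 0.66, adjusted p = 0.0520 to 0.0969). Of 35 other genes listed as HIF targets, 7 rose and 12 fell under carbidopa, 5 rose and 10 fell under LY-364947 and 9 rose and 12 fell under CHIR-99021. These are 20% and 34.3%, 14.3% and 28.6%, and 25.7% and 34.3%. Over all tested genes the shares higher and lower were 18% and 19.7%, 13.7% and 17.2%, and 18.7% and 20.1%. Angptl4, an inhibitor of lipoprotein lipase, went from 3.79 and 3.87 CPM in MEFs to 40.2 and 33.6 CPM under carbidopa, 23.5 and 30.9 CPM under LY-364947 and 121 and 106 CPM under CHIR-99021, a rise of 3.27, 2.82 and 4.89. Also higher with every compound were Gbe1, the glycogen branching enzyme (1.37, 1.30 and 1.06), and Loxl2, a lysyl oxidase relative (0.70, 0.86 and 1.15). Pgf, a Vegfa relative at 2.07 CPM or less, rose under carbidopa (2.31) and CHIR-99021 (2.90), the former call being lost without either MEF replicate or carbidopa replicate 1 (1.82 to 2.76, adjusted p = 0.0699 to 0.111). Lower with every compound were Lox, the collagen cross-linking enzyme (-2.75, -2.46 and -1.53), Ppp1r3c, a glycogen-targeting phosphatase subunit (-3.01, -2.60 and -3.96), and Tgfb3, a TGF-beta ligand (-2.19, -2.05 and -1.35).

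Txnip and Arrdc4, arrestin-like genes that the glucose sensor MondoA and its partner Mlx switch on, were tested with those 2 factors, the related Mlxipl having too few counts. Arrdc4 rose under carbidopa (0.50) and LY-364947 (0.76), Txnip under LY-364947 (0.69) and Mlx under CHIR-99021 (0.40). Each of these calls was lost when a single library was left out, Arrdc4 under carbidopa without any library but carbidopa replicate 2 (0.28 to 0.62, adjusted p = 0.0545 to 0.231), Arrdc4 under LY-364947 without MEF replicate 1 (0.64, adjusted p = 0.0645), Txnip without any of the 4 libraries compared (0.60 to 0.78, adjusted p = 0.0588 to 0.134) and Mlx without either MEF replicate or CHIR-99021 replicate 1 (0.35 to 0.45, adjusted p = 0.0693 to 0.136).

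The compounds were also compared with each other at their common dose of 10 µM over the 41 tested members. Between LY-364947 and carbidopa no member was called, with 0.0132% of all tested genes called higher and 0% called lower by edgeR. DESeq2 called no member either, and 2 members and 1367 genes in all had an unadjusted p under 0.05. For 24 of the 41 members the 95% interval of the difference lay within 0.5 of 0 on the log2 scale and for 38 within 1, the exceptions being Slc2a3, Aldoc and Car9. This count rests on carbidopa replicate 2. Without it, which leaves 1 carbidopa library, members were called in both directions, in a share close to that of all tested genes. Pdk1 and Epas1 were then higher under LY-364947, and Adm, Aldoa, Eno1, Gapdh, Ldha, Ldhb, Pgk1, Pkm and Tpi1 lower. Carbidopa replicate 1 stood above replicate 2 for Adm, Ldha, Ldhb, Aldoa, Tpi1, Eno1 and Pkm, and the chi-square between the carbidopa pair over all genes was 38.2 times that of counting noise, against 4.6 to 10.1 times in the other groups.

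CHIR-99021 differed from both other compounds in several members. Against carbidopa, 3 members were higher (6.62% of all tested genes higher) and 6 lower (8.08% of all tested genes lower). Against LY-364947, 8 members were higher (6.45% of all tested genes higher) and 6 lower (7.69% of all tested genes lower). Hk2 was higher under CHIR-99021 by 1.12 ± 0.15 than under carbidopa (adjusted p = 0.000919) and by 1.17 ± 0.15 than under LY-364947 (adjusted p = 0.000786), and Ak4 by 1.22 ± 0.23 and 0.95 ± 0.23. Hk1 was higher by 0.38 and 0.46. In contrast, Pdk1 was lower under CHIR-99021, at a log2 difference of -0.65 ± 0.11 from carbidopa (adjusted p = 0.00409) and -0.86 ± 0.11 from LY-364947 (adjusted p = 0.000855). Pdk4 (-0.54 ± 0.11 and -0.63 ± 0.11) and Adm (-0.94 ± 0.16 and -0.65 ± 0.16) were lower likewise. Bnip3 (-0.61 and -0.54) and Bnip3l (-0.34 and -0.36) were lower as well. Ndrg1 was lower than under carbidopa (-0.73 ± 0.20, adjusted p = 0.0343), and its difference from LY-364947 was -0.50 (adjusted p = 0.135). Against LY-364947, the glycolytic enzymes Pfkl (0.56), Gapdh (0.38), Pgam1 (0.39), Eno1 (0.59) and Pkm (0.61) were higher under CHIR-99021 and Epas1 was lower (-0.56). For these 5 enzymes the differences from carbidopa were 0.38, 0.14, 0.27, 0.35 and 0.30, and for Epas1 -0.34, none of them past the threshold. By total counts alone Pfkl (0.55, adjusted p = 0.0604), Gapdh (0.37, adjusted p = 0.0510) and Pgam1 (0.38, adjusted p = 0.0505) also missed the threshold against LY-364947.

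**Figure D4:**
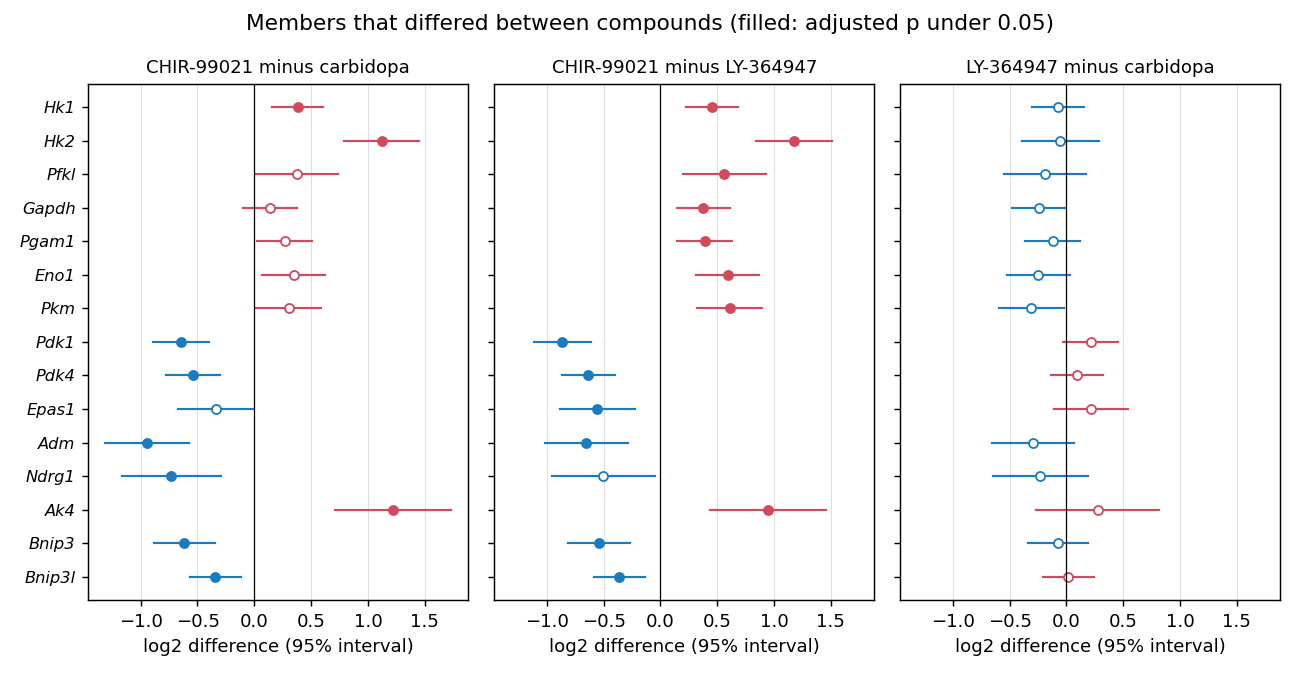
Log2 difference between compounds, with unadjusted 95% intervals, for the 15 members called in at least 1 comparison between compounds. Red marks values above 0 and blue values below 0, and filled points have an adjusted p under 0.05. Hk2 and Ak4 lie above 0 and Pdk1, Pdk4, Adm, Bnip3 and Bnip3l below 0 for CHIR-99021 against both others, and the panel of LY-364947 against carbidopa holds no filled point.

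The number of members that differed between CHIR-99021 and the other compounds depended on single libraries. Compared with the fit of all libraries, it rose or fell together with the number over all tested genes in each fit given here. Against carbidopa it was 9 with all libraries, 5 in a fit of the compared groups alone, 16 without carbidopa replicate 1, 14 without carbidopa replicate 2, and 3 and 5 when CHIR-99021 replicates 1 and 2 were left out. Against LY-364947 it was 14 with all libraries, 8 and 9 without MEF replicates 1 and 2, 4 and 6 without CHIR-99021 replicates 1 and 2, 4 and 5 without LY-364947 replicates 1 and 2, and 20 without either carbidopa replicate. Hk2 and Adm kept their calls against carbidopa in all of these, as did Hk2, Pdk1 and Pdk4 against LY-364947. Against carbidopa, Ak4 was lost without CHIR-99021 replicate 2 (1.00, adjusted p = 0.0554), Pdk1 without CHIR-99021 replicate 1 (-0.57, adjusted p = 0.0651), Pdk4 without either CHIR-99021 replicate (-0.57 to -0.50, adjusted p = 0.0599 to 0.0724), Ndrg1 without CHIR-99021 replicate 1 or either MEF replicate (-0.73 to -0.47, adjusted p = 0.0741 to 0.277) and Bnip3 without CHIR-99021 replicate 1 (-0.54, adjusted p = 0.10). Against LY-364947, Ak4 was lost without CHIR-99021 replicate 2 or either LY-364947 replicate (0.72 to 0.98, adjusted p = 0.114 to 0.132), and Eno1 and Pkm without CHIR-99021 replicate 1 or LY-364947 replicate 1 (0.51 to 0.52, adjusted p = 0.120 to 0.134 for Eno1, 0.49 to 0.54, adjusted p = 0.123 to 0.130 for Pkm). Leaving out any MEF, CHIR-99021 or LY-364947 replicate ended the calls of Hk1 (0.28 to 0.48, adjusted p = 0.0510 to 0.275) and Bnip3l (-0.41 to -0.28, adjusted p = 0.0892 to 0.324) against carbidopa, and of Bnip3l, Epas1, Pfkl, Gapdh and Pgam1 against LY-364947 (adjusted p up to 0.324, 0.195, 0.332, 0.273 and 0.288). Against LY-364947, Adm was lost without either CHIR-99021 or LY-364947 replicate or MEF replicate 1 (-0.76 to -0.54, adjusted p = 0.0545 to 0.160), Bnip3 without either CHIR-99021 or LY-364947 replicate (-0.61 to -0.46, adjusted p = 0.0534 to 0.164), and Hk1 without CHIR-99021 replicate 1 or either LY-364947 replicate (0.36 to 0.52, adjusted p = 0.0652 to 0.185).

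Genes of other cell types moved in the same libraries. Over all tested genes, 19.7% fell under carbidopa, 17.2% under LY-364947 and 20.1% under CHIR-99021, where 18.7% rose. The 16 macrophage genes summed to 1273 and 1325 CPM in MEFs, 434 and 416 CPM under carbidopa, 312 and 323 CPM under LY-364947 and 101 and 109 CPM under CHIR-99021, and 14, 14 and 15 of the 15 tested fell. Lyz2, the most abundant of them, was 738 and 758 CPM in MEFs and 47.9 and 53.8 CPM under CHIR-99021, and no macrophage gene was at 0 in all libraries. The 12 fibroblast genes summed to 38030 and 37500 CPM in MEFs and to between 8481 and 12060 CPM after treatment, with 10 of 12 lower and 1 higher with each compound. Fn1 led this sum, at a mean of 18970 CPM in MEFs. Pdgfra rose under carbidopa (0.49) and LY-364947 (0.36), and Dcn was called with neither. The 18 cell cycle genes summed to 446 and 444 CPM in MEFs, 396 and 408 CPM under carbidopa, 446 and 419.7 CPM under LY-364947 and 262 and 280.2 CPM under CHIR-99021. Of these 18, 8 fell and 3 rose under carbidopa, 3 fell and 3 rose under LY-364947, and 13 fell and 3 rose under CHIR-99021. The 8 endothelial genes, of which 4 were tested, went from 268 and 245 CPM to between 59.3 and 80.8 CPM with 2 or 3 called lower. Flt1 led this sum, at a mean of 238 CPM in MEFs, and Kdr was not called under carbidopa or LY-364947. The 8 skeletal muscle genes went from 50.5 and 47.3 CPM to between 6.85 and 17.9 CPM. Their sum in MEFs was mostly Des and Acta1 (means of 30.9 and 17.6 CPM), the only 2 tested. The 8 epithelial genes, of which 3 were tested, went from 4.24 and 3.23 CPM to between 9.82 and 21.5 CPM. Under carbidopa and LY-364947 only Krt19 was called, from a mean of 2.76 CPM in MEFs to 15.3 and 9.38 CPM. On few reads, mean Krt8 went from 0.223 CPM to 0.0235 and 0.0533 CPM there, and mean Cldn7 from 0.102 CPM to 0.0235 and 0 CPM. All 3 tested were called higher under CHIR-99021. The 6 erythroid genes summed to at most 0.581 CPM, with 3 of them at 0 in all libraries. The part of these shifts in the changes of the glycolysis and hypoxia genes was not tested.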

How the data were processed

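RNA-seq libraries of untreated and compound-treated MEFs were used. Per the labels and the paper's methods, the authors mapped reads to mm10 with STAR 2.4.2a and obtained reads per gene from featureCounts. The authors deposited raw counts, whole numbers without normalization. The annotation release, strand setting and treatment of multi-mapped reads are not given in the sources used here. The labels name a SMARTER library kit, whereas the methods name NEBNext Ultra.

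Groups came from the sample titles. Counts were analysed in R 4.3.3 with edgeR 4.0.16 (limma 3.58.1): filterByExpr kept 15154 of 50578 genes, TMM factors were used, and the quasi-likelihood test was run with group as the only term on all 8 libraries, with Benjamini-Hochberg adjustment over all genes tested. CPM values are scaled by TMM factors. Levels between genes were compared per kilobase of GENCODE M21 exon, an annotation that held 99.6% of the identifiers and that the authors may not have used, and gene positions are from it. No molecular identifiers are described. Intervals of log2 fold changes come from the quasi-likelihood fit and include the estimated spread between libraries. By counting error alone, a count of 0 allows up to 3 reads. No replicate pair was 1 library deposited again. Scripts were tested on simulated data.

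The members and lists were chosen with earlier results of these data known. Values per library were given for members called with an absolute log2 fold change of at least 1 and a mean of at least 20 counts in the higher group, and for Gapdh, Ldha, Pkm, Slc2a1, Hif1a and Epas1. From each other list, up to 3 called genes in each direction were named per compound by the same count minimum, and 2 genes of these lists are not reported here. Alternatives were DESeq2 1.42.0, RLE size factors, total counts alone, no filter, a minimum of 10 counts in each library, fits of only the groups compared, the replicate number as a block, and each library left out. With a library left out, its group holds 1 library, which is assumed to vary like the others.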

Additional observations from a re-analysis of the deposited data

How the results depend on the processing

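No difference called for a member changed direction under any alternative. Of 93 member differences called over the 6 comparisons, the alternatives kept 1230 values past the threshold and left 165 short of it. The number of members called against MEFs stayed within 1.5 times under every alternative: with each library left out in turn it ran from 18 to 27 for carbidopa, 17 to 31 for LY-364947 and 17 to 30 for CHIR-99021. Between compounds the counts ran from 3 to 16 for CHIR-99021 against carbidopa, 4 to 20 for CHIR-99021 against LY-364947 and 0 to 11 for LY-364947 against carbidopa, and a fit of the compared groups alone gave 5 in place of 9 for the first of these. The number called over all tested genes moved between these fits too. The cause was not tested. Under total counts alone the summed level over that of MEFs was 1.22, 1.03 and 1.32 for the glycolysis genes and 1.07, 1.06 and 0.942 for the hypoxia genes (carbidopa, LY-364947, CHIR-99021), since TMM factors were lower for the MEF libraries. The share of members' promoters with the core was 80.7% in the whole 300-base window too, where 43.8% of all promoters held it.

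With the replicate number as a block, the counts of members called were 22, 23 and 23 against MEFs, 7 for CHIR-99021 against carbidopa, 11 for CHIR-99021 against LY-364947 and 0 for LY-364947 against carbidopa. Differences between the replicates of a group correlated between -0.161 and 0.128 across groups. Each group gives a single such difference, so whether same-numbered libraries shared a culture or batch cannot be told from this. The block changed these counts by less than 1.5 times. The same alternatives for the other lists were added after seeing the data. With 2 libraries a group, the smallest changes and the genes at a few CPM, such as Slc2a3, Slc16a3 and Aldoc, are the least certain.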

Other observations

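Ankrd37, a hypoxia target that was not tested, had 25 reads over the 8 libraries, 12 of them in MEF replicate 1 (0.892 CPM) and at most 7 in any other library, and 13.3% of its 75-base words also occur in Lrp2bp. Car9 was likewise highest in MEF replicate 1, at 1.26 CPM, against 0.387 CPM in MEF replicate 2.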
